A study of Bos taurus with 29 samples.

Results

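Corpus luteum samples labelled CL-CM-EE-IVF were compared with corpus luteum samples labelled CL-CM-EE-AI, across all genes of the deposited corpus luteum count table. The comparison took the 3 columns of each group, numbered R2, R4 and R5, so 6 of the 12 corpus luteum columns, and the series has 29 labelled samples in all. Per the labels, endometrial explants (EE) were cultured with 1 embryo of day 7, which had been produced in vivo (AI) or in vitro (IVF). The embryo day is entered for the explant samples of the series and not for the corpus luteum samples. The labels leave CM unexplained, and it was taken to mean conditioned medium from the explants. By that reading both groups received medium from explants that held an embryo, and they differ in how the embryo was produced. Below, CL-CM-EE-IVF is also called in vitro medium and CL-CM-EE-AI in vivo medium. The other corpus luteum groups, CL-CM-EE (medium of explants without an embryo, by the same reading) and CL-NC (taken as the control), entered the fit for the estimate of spread and are given only for reference. The labels give bovine tissue from a slaughterhouse source and polyA RNA, and give neither the age nor the breed of the animals, nor what an R number marks. The labels list 5 samples for each of these 2 groups, with a pair of titles per group under R4 and under R5. The table holds 1 column per group and number, and the sources used here do not state how the titles were joined. No label says that the libraries of a group come from separate animals. The p-values therefore reflect only the spread between these samples, which may be technical.

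The corpus luteum is the gland that forms from the ovulated follicle and secretes progesterone, the hormone that keeps the uterus receptive and sustains pregnancy. Its steroidogenic cells take up or make cholesterol, move it into mitochondria with the carrier STAR, and convert it to progesterone with CYP11A1 and HSD3B1, under luteinizing hormone acting on the receptor LHCGR. In cattle, prostaglandin F2 alpha from the uterus ends the life of the gland through the receptor PTGFR, and interferon tau from the older, elongating conceptus protects it.

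The 6 libraries held between 17488966 and 22702830 counts, the lowest being in vivo R4. Mitochondrially encoded genes took 50.02% ± 4.53 of the counts with in vitro medium and 52.4% ± 4.44 with in vivo medium (SD, n = 3 each). An exact two-sided permutation test, which ignores the R number, gave p = 0.6, and its smallest p for 3 against 3 is 0.1. Within each number the share was lower with in vitro medium: 49.51% against 50.85% in R2, 45.77% against 48.94% in R4 and 54.78% against 57.41% in R5. These paired differences were not tested. The defining luteal genes were present in all 6 libraries, with at least 543 CPM of HSD3B1 and 138 CPM of STAR in each (CPM are counts scaled to a common library total after trimmed mean of M-values, TMM). Across genes, the rank correlation of counts between the pair of libraries with the same number was 0.944 for R2, 0.960 for R4 and 0.973 for R5. In R2, the in vitro library was closer to the library of CL-CM-EE (0.962) and the in vivo library to that of CL-NC (0.971) than to each other.

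No gene differed between the media at the adjusted threshold. Of 18939 genes tested with edgeR's quasi-likelihood test with the R number as a block, 0 (0%) passed a Benjamini-Hochberg adjusted p of 0.05, and the lowest adjusted p was 1. DESeq2 and limma voom with the same block also called 0 genes, with a lowest adjusted p of 0.997 in DESeq2. At an unadjusted p under 0.05 there were 163 genes (0.861%), of which 69 (0.364%) were higher and 94 (0.496%) lower with in vitro medium. DESeq2 gave 220 such genes and voom 173. If no gene differed and p-values were evenly spread, a share of 0.05 of the genes would lie under 0.05. The 163 genes fell well short of that share, and the reason was not tested. With mitochondrial genes left out of the library totals and of the tests (18854 genes tested) the split was 93 higher and 67 lower. Without R2 the number rose to 485 (405 higher, 80 lower), without in vivo R2 to 296 and without in vitro R5 to 273. The median log2 fold change over all genes tested was -0.04, and 42.7% of genes were above 0. These values depend on the scaling: they were 0.02 and 53.0% without mitochondrial genes. With the 6 libraries alone they were 0.03 and 55.5%. Counts of listed genes above 0 are to be read beside these shares. Of the 14813 genes with a mean of at least 1 CPM over the 6 libraries, 64.6% had a 95% interval wholly within a 2-fold change in either direction. Among them the median interval reached 0.62 to either side on the log2 scale. A p that misses the threshold does not show that a gene was equal in both media.

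Differences between the media pointed in opposite directions in R2 and R4. Differences within a number were taken between 1 library of each group, as log2 CPM of CL-CM-EE-IVF minus CL-CM-EE-AI, and have no test. In R2, 3855 genes (20.4%) were over 2-fold lower and 358 (1.89%) over 2-fold higher with in vitro medium. In R4 the order was turned, with 949 genes (5.01%) over 2-fold lower and 2772 (14.6%) over 2-fold higher, and in R5 631 (3.33%) were lower and 1442 (7.61%) higher. The SD of the differences over genes was 1.02 in R2, 0.914 in R4 and 0.673 in R5. Across the 18939 genes, which are not independent replicates, the differences in R2 had a Pearson correlation of -0.295 with those in R4 and -0.267 with those in R5, while R4 and R5 had 0.107. In all 3 numbers, 1120 genes (5.91%) were higher and 1815 (9.58%) lower. The 3 libraries of one group lay wholly above the 3 of the other for 439 genes (2.32%), of which 143 (0.755%) were higher and 296 (1.56%) lower with in vitro medium.

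These differences followed the level of the gene. Among the 3937 genes with a mean of up to 1 CPM, the median difference was -1.11 in R2, 0.51 in R4 and 0.23 in R5. Among the 875 genes over 100 CPM the medians were 0.15, -0.14 and -0.06. Long non-coding RNAs, 1131 of the genes tested, had medians of -0.84, 0.30 and 0.13, against 0.01, -0.03 and -0.02 in 15469 protein-coding genes. Their median level was also lower, at 0.83 CPM against 7.07 CPM, so biotype and level are not separated here. The number of genes with a count moved alongside: it was 18606 for in vitro R2 and 19068 for in vivo R2, but 18951 and 18254 in R4. The part of library make-up in these differences was not tested.

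**Figure D1:**
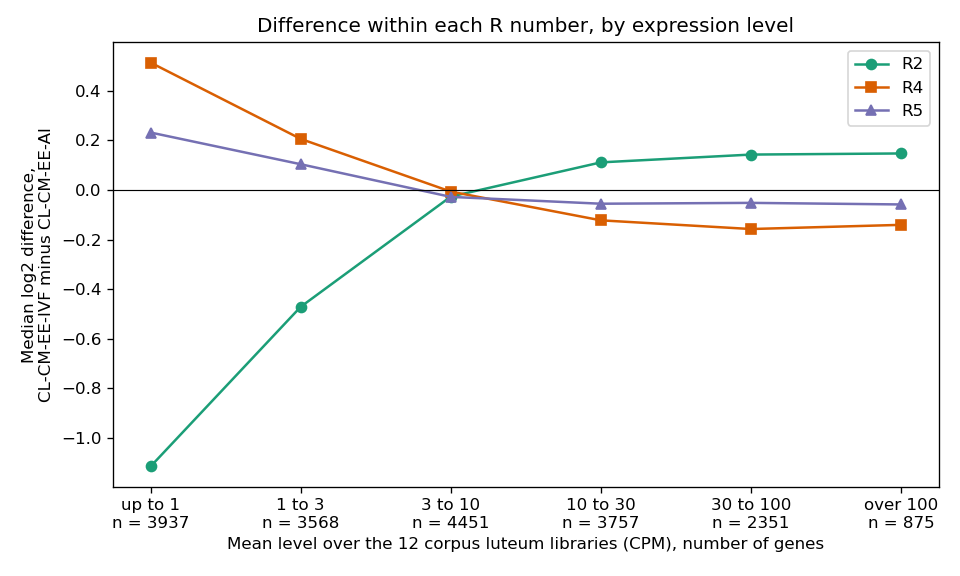
Median log2 difference between the CL-CM-EE-IVF and the CL-CM-EE-AI library of each R number (vertical axis), for 6 classes of mean level over the 12 corpus luteum libraries (horizontal axis, CPM, with the number of genes). Lines join R2, R4 and R5: low genes lie below 0 in R2 (-1.11) and above 0 in R4 (0.51) and R5 (0.23), and the lines cross between 3 and 10 CPM.

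The genes that make progesterone did not separate the media, and their direction differed between R2 and R4. STAR, the carrier that brings cholesterol into mitochondria, was at 256, 527 and 144 CPM in in vitro R2, R4 and R5, and at 140, 986 and 138 CPM with in vivo medium. The high value in each group was R4, and the groups overlapped. Its log2 fold change was -0.08 (95% interval -0.97 to 0.80, edgeR adjusted p = 1). CYP11A1, which cuts the cholesterol side chain, had 504, 644 and 207 CPM with in vitro medium and 287, 1103 and 224 CPM with in vivo medium, a log2 fold change of -0.08 (-0.83 to 0.66). HSD3B1, which completes progesterone, had 909, 1322 and 819 CPM against 543, 2469.7 and 983 CPM, a log2 fold change of -0.18 (-0.88 to 0.53). All 3 genes were higher with in vitro medium in R2, by 0.87, 0.81 and 0.74 on the log2 scale, and lower in R4, at -0.90, -0.78 and -0.90. Without in vivo R4 the fitted values of STAR and CYP11A1 turned to 0.61 and 0.42. That library was the highest of the 12 for STAR: the R4 libraries of CL-NC and CL-CM-EE had 211 and 463 CPM. In bulk samples such as these, fewer cells of a type and less RNA per cell cannot be told apart.

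Of the 25 listed genes of luteal steroidogenesis, 21 were tested, none passed the adjusted threshold, and 6 of 21 lay above 0 (median log2 fold change -0.08). Without R4 this became 14 of 21 and 0.12. CYP19A1, the aromatase that makes oestradiol, had the lowest p of the list. It was at 1.66, 2.54 and 2.57 CPM with in vitro medium and at 3.63, 4.93 and 5.15 CPM with in vivo medium, so all 3 in vitro libraries lay below all 3 of the other group. Such a position held for 1.56% of all genes tested. In R2, R4 and R5 CYP19A1 had 0.996, 3.42 and 8.22 CPM in CL-CM-EE, a wider range than both groups, and 2.16, 3.91 and 2.61 CPM in CL-NC. The log2 fold change of CYP19A1 was -1.04 (95% interval -2.05 to -0.03, unadjusted p = 0.045, edgeR adjusted p = 1). The regulators NR5A1, NR5A2 and GATA6, transcription factors of steroidogenic cells, had log2 fold changes of -0.09, -0.01 and 0.09 and were chosen after their values were seen.

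**Figure D2:**
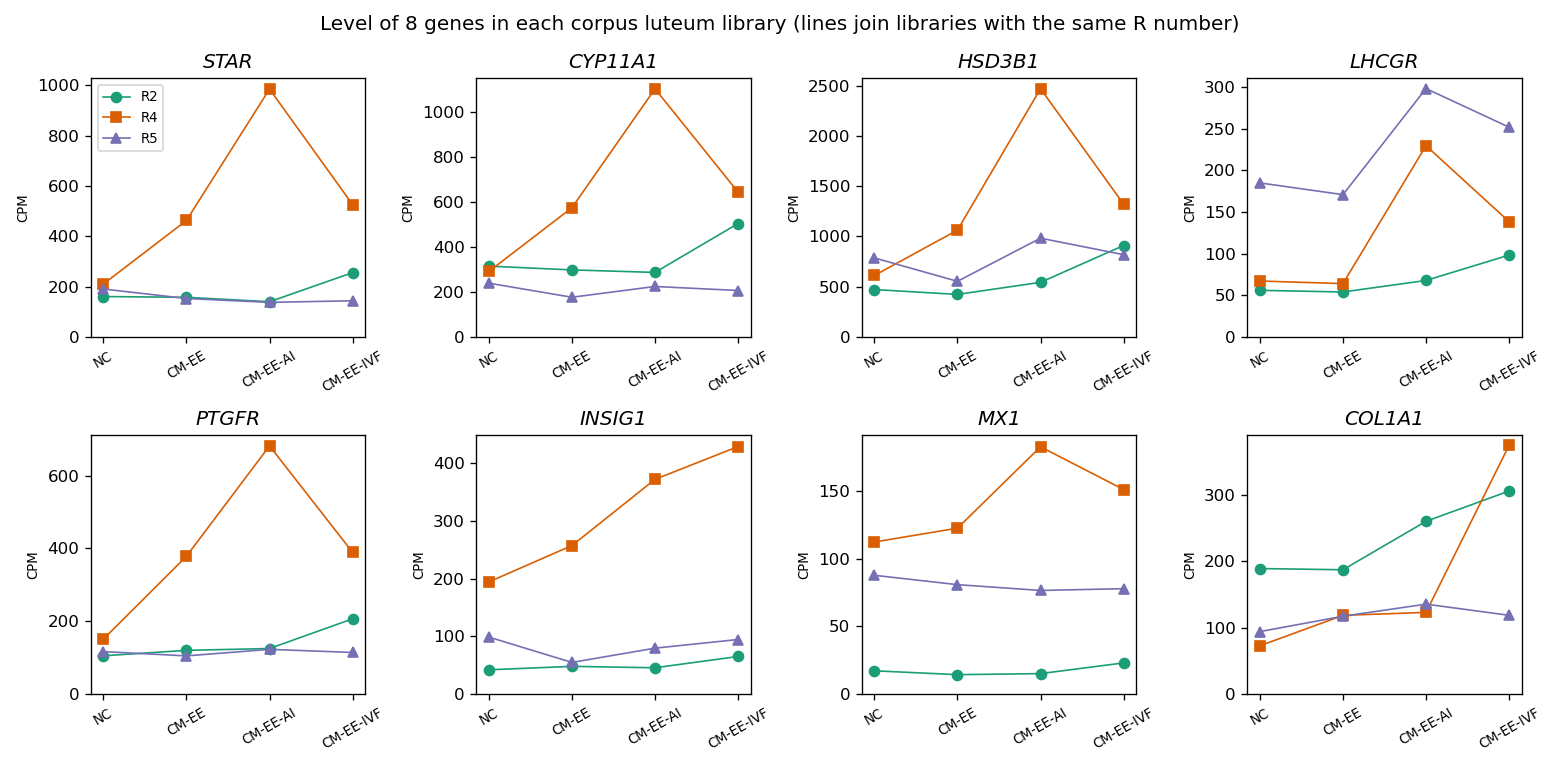
Level (CPM, from 0) of 8 genes in each of the 12 corpus luteum libraries, by group on the horizontal axis, with lines joining libraries of the same R number. For STAR, CYP11A1, HSD3B1, LHCGR and PTGFR the CL-CM-EE-AI library exceeds the CL-CM-EE-IVF library in R4 and is below it in R2, while for COL1A1 in R4 the CL-CM-EE-IVF library has 374 CPM against 123 CPM.

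Cholesterol supply showed the same turn between numbers. In the list of sterol and fatty acid synthesis, 26 of 27 genes were higher with in vitro medium in R2 (median log2 difference 0.67), 2 of 27 in R4 (-0.67) and 15 of 27 in R5 (0.10). The fitted median was therefore near 0, at -0.02 with 13 of 27 genes above 0. With mitochondrial genes left out of the totals and tests it turned to 0.04, and the median over all genes to 0.02. The list median was 0.35 without R4, 0.35 without in vivo R4 and -0.30 without R2. The genes higher in R4 were INSIG1 and SREBF2 (differences of 0.21 and 0.05), the latter chosen after its value was seen. INSIG1 holds back the sterol-sensing factors SREBP. It had 65.0, 429 and 94.4 CPM with in vitro medium and 45.4, 372 and 79.4 CPM with in vivo medium, higher within every number though the groups overlapped, with a log2 fold change of 0.32 (-0.22 to 0.85). ABCA1, which exports cholesterol from cells, had 36.2, 50.3 and 39.7 CPM against 37.3, 81.1 and 59.0 CPM, a log2 fold change of -0.44 (-0.97 to 0.10), and -0.22 without in vivo R4. In its list of cholesterol uptake, storage and efflux, 9 of 19 genes were above 0 (14 without R4 and 4 without R2), and none passed.

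The receptors through which the gland is kept or ended gave values on both sides of 0 within numbers. LHCGR had 98.3, 138 and 252 CPM with in vitro medium and 67.8, 229.6 and 298 CPM with in vivo medium. Its log2 fold change was -0.21 (-0.79 to 0.37). PTGFR had 206, 389 and 114 CPM against 125, 682 and 123 CPM, a log2 fold change of -0.11 (-0.85 to 0.64), so R2 and R4 again lay on opposite sides. FSHR, the receptor of follicle-stimulating hormone, was lower within every number, with 11.002, 16.4 and 23.4 CPM against 17.05, 22.8 and 29.97 CPM, but the groups overlapped. Its log2 fold change was -0.49 (-0.99 to 0.01, unadjusted p = 0.056). IGF1R, the receptor of insulin-like growth factor 1, had 89.6, 124 and 74.6 CPM against 70.3, 138 and 73.8 CPM, which is 0.09 (-0.39 to 0.57). Of 18 hormone receptors tested, 4 lay above 0 (median -0.14) and none passed, and without R4 the values were 9 of 18 and 0.01.

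Genes linked to luteal regression showed no called difference, with 7 of 26 above 0 and a median of -0.11, and 0.00 without R4. PTGS2, the inducible cyclooxygenase, had the lowest p, with 2.08, 12.8 and 1.63 CPM with in vitro medium and 2.20, 21.3 and 2.53 CPM with in vivo medium. Each in vitro library was below its partner, the groups overlapped, and the log2 fold change was -0.51 (-1.43 to 0.41), and -0.28 without in vivo R4. In the prostaglandin list 8 of 19 genes lay above 0 (median -0.06). There PLA2G4A, the phospholipase that frees arachidonic acid, had 2.76, 7.39 and 4.88 CPM against 8.84, 8.32 and 6.11 CPM, and a log2 fold change of -0.68 (-1.45 to 0.09), which was -0.22 without R2. The transporter SLCO2A1 and the synthase PTGES3 had log2 fold changes of 0.17 (-0.35 to 0.69) and -0.02 (-0.49 to 0.45).

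Interferon-stimulated genes, which respond to interferon tau in cattle, were spread around 0: 18 of 42 lay above it and the median was -0.02. With mitochondrial genes left out of the totals and tests the list median turned to 0.04, and the median over all genes to 0.02. None of the listed genes passed. MX1, an antiviral GTPase, had 23.0, 151 and 77.9 CPM with in vitro medium and 15.1, 183 and 76.6 CPM with in vivo medium, so the levels differed far more between numbers than between media. Its log2 fold change was 0.11 (-0.36 to 0.57), and -0.13 without R2. IFI6, an interferon-induced mitochondrial protein, had 7.56, 277 and 52.4 CPM against 7.09, 388 and 51.4 CPM, a log2 fold change of -0.17 (-0.88 to 0.54). CMPK2, a mitochondrial nucleotide kinase with the lowest p of the list, had 4.63, 6.30 and 6.34 CPM against 3.45, 4.36 and 4.82 CPM. It was higher within every number, with a log2 fold change of 0.45 (-0.10 to 0.99, unadjusted p = 0.10). ISG15, chosen after its value was seen as the gene commonly used to read interferon tau exposure, had a log2 fold change of -0.08 (-0.58 to 0.41).

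Among other immune genes, BOLA-DMB, which loads peptides on class II molecules, had 1.61, 2.30 and 3.81 CPM with in vitro medium and 10.6, 3.51 and 3.58 CPM with in vivo medium. in vivo R2 stood above the rest, and the log2 fold change was -1.36 (-2.65 to -0.07, unadjusted p = 0.041, edgeR adjusted p = 1). Without that library it was -0.23. Genes of this family are similar in sequence, so how reads were split among them is uncertain. The chemokine CCL5 had 4.08, 4.12 and 1.28 CPM against 5.43, 6.002 and 3.53 CPM, lower within every number, and a log2 fold change of -0.82 (-1.68 to 0.04), and -0.50 without R5. Antigen presentation genes were above 0 in 7 of 20 (median -0.05), inflammation and NF-kB targets in 10 of 20 (0.00) and complement genes in 10 of 26 (-0.08), and none passed. Without R2 the complement median turned to 0.08 (13 of 26), and without R5 the inflammation median was -0.20 (7 of 20).

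Matrix and stromal genes mostly lay above 0, and by most in R4. Of 34 collagen and matrix genes, 31 lay above 0 (median log2 fold change 0.28), and none passed the adjusted threshold. Within numbers the medians were 0.18 in R2, 0.62 in R4 and -0.05 in R5. Without R4, 23 of 34 genes lay above 0 with a median of 0.06, and without in vitro R4 the values were 25 of 34 and 0.07. COL1A1, the main chain of type I collagen, had 305, 374 and 118 CPM with in vitro medium and 260, 123 and 135 CPM with in vivo medium. Its log2 fold change was 0.65 (-0.07 to 1.36), and 0.02 without R4. COL5A1, a fibrillar collagen, had 59.1, 41.8 and 34.9 CPM against 51.8, 18.9 and 34.1 CPM. It was higher within every number, with a log2 fold change of 0.46 (0.01 to 0.90, unadjusted p = 0.045, edgeR adjusted p = 1), and 0.10 without R4. COL4A1, COL4A2 and SPARC, of the basement membrane and matrix, had log2 fold changes of 0.08, 0.16 and 0.13 with intervals that include 0.

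ADAMTS2, the protease that trims procollagen, had 17.5, 15.8 and 21.3 CPM with in vitro medium and 19.1, 7.42 and 8.97 CPM with in vivo medium. R2 lay slightly below its partner while R4 and R5 lay above, and the log2 fold change was 0.76 (0.09 to 1.43, unadjusted p = 0.029, edgeR adjusted p = 1). It ran from 0.39 without in vitro R5 to 1.19 without R2. Its list of matrix proteases and inhibitors was above 0 in 8 of 20 genes (median -0.06), but in 17 of 20 (0.08) without R4 and in 15 of 20 (0.14) without in vivo R4. PAPPA, which cleaves binding proteins of insulin-like growth factors, had 17.5, 52.8 and 15.2 CPM against 17.9, 88.9 and 20.2 CPM, a log2 fold change of -0.41 (-0.96 to 0.13). The list of that growth factor system had 10 of 18 genes above 0 (median 0.07), and 6 of 18 (-0.08) without R4, where PAPPA was at -0.24. Angiogenic ligands and receptors were above 0 in 15 of 24 (median 0.03), and in 11 of 24 (-0.05) without in vivo R4. FGF2, a growth factor for endothelial cells, had 5.39, 12.2 and 6.04 CPM against 4.76, 5.94 and 4.63 CPM, higher within every number, at 0.52 (-0.11 to 1.14), and at 0.26 without in vivo R4. Vasoactive genes were above 0 in 7 of 18 (-0.04), with RAMP3, a partner of adrenomedullin receptors, at -0.25 (-0.76 to 0.26). Without R4 the vasoactive count became 10 of 18 (0.04), and without in vitro R4 RAMP3 was at -0.12.

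Marker lists of cell types moved with these groups. The 9 markers of steroidogenic luteal cells summed to 2516, 3722 and 1959 CPM with in vitro medium and to 1548, 6486 and 2198 CPM with in vivo medium. None of the 9 had a fitted value above 0 (median -0.09), whereas 8 of 9 did without R4 (0.25), and within numbers the medians were 0.64, -0.73 and -0.12. All 13 markers of smooth muscle and pericytes lay above 0 (median 0.30), with sums of 536, 770 and 344 CPM against 473, 537 and 350 CPM. Without R4 this became 5 of 13 and -0.03. NOTCH3, a pericyte receptor, had 26.6, 49.1 and 31.7 CPM against 17.5, 15.3 and 39.4 CPM, at 0.66 (0.00 to 1.33, unadjusted p = 0.049, edgeR adjusted p = 1), and at 0.18 without R4. Fibroblast and stroma markers lay above 0 in 10 of 11 (median 0.40, and 0.15 without R4), with sums of 1031, 1012 and 423 CPM against 785, 604 and 416 CPM. The part of tissue make-up in the steroid, sterol and matrix values was not tested.

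Of the endothelial markers 7 of 14 lay above 0 (median 0.01), with 1 of 14 (-0.17) without in vivo R4 and 11 of 14 (0.14) without in vivo R5. VWF, an endothelial clotting protein, was at 0.36 (-0.14 to 0.86), and at 0.07 without in vitro R4. Lymphatic endothelial markers were above 0 in 5 of 7 (3 of 7 without R4), and their gene PROX1 was at 0.47 (-0.09 to 1.04), and at -0.01 without R4. Markers of macrophages were above 0 in 7 of 12 (CD163, a scavenger receptor, 0.72, -0.12 to 1.57), of T and NK cells in 5 of 12 (CD8A -0.75), of B and plasma cells in 5 of 7 (PAX5 0.47) and of neutrophils, eosinophils and mast cells in 3 of 7 (S100A12 0.16). Without in vitro R4 the macrophage count was 4 of 12 (median -0.12), CD163 was at 0.12 and PAX5 at -0.19. Without R2 the T and NK count was 7 of 12 and S100A12 was at -0.16, without R5 the B and plasma cell count was 3 of 7, and without in vivo R5 CD8A was at -0.18. Blood markers stood out by number and not by medium: the red blood cell list summed to 33.9 CPM in in vitro R2 and 40.2 CPM in in vivo R2, and to between 4.20 and 6.001 CPM in the other 4 libraries. Its gene HBA1, which has a near-identical copy, was at -0.55 (-1.38 to 0.28). Epithelial markers were highest in R4, at 61.3 and 122 CPM against 11.3 to 29.99 CPM elsewhere (MSLN -0.70, -1.80 to 0.39), and so were those of adipocytes, at 98.6 and 212 CPM (CIDEA -0.31). Granulosa and theca markers were above 0 in 3 of 7, with INHA of the luteal list at -0.57, and nerve and glia in 1 of 3 (S100B -0.19). The red blood cell and adipocyte lists were each above 0 in 2 of 6 genes, and the epithelial list in 5 of 10. Without in vivo R4 MSLN was at -0.24, HBA1 at -0.23, S100B at -0.10 and CIDEA at 0.20, the granulosa and theca count was 4 of 7 and the nerve and glia count 2 of 3. INHA was at -0.29 without in vitro R5. No list of cell type markers held a gene past the adjusted threshold.

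**Figure D3:**
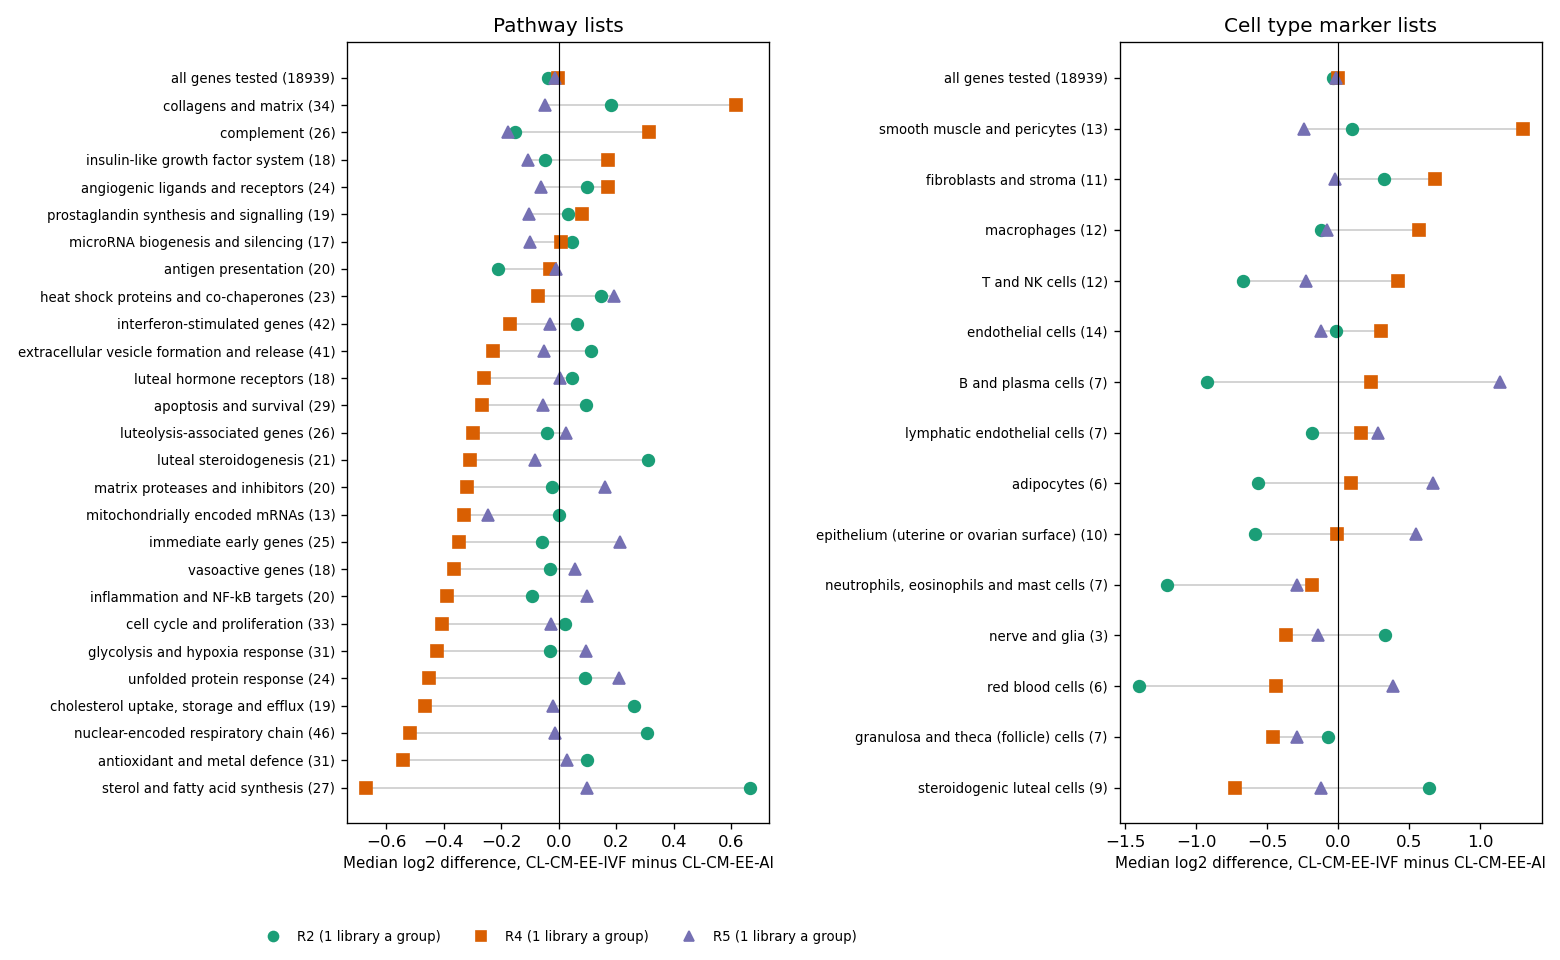
Median log2 difference between the CL-CM-EE-IVF and CL-CM-EE-AI library of each R number (horizontal axis) for 26 pathway lists and 14 cell type lists, with the number of genes tested in brackets and all genes at the top. Sterol and fatty acid synthesis lies at 0.67 in R2 and -0.67 in R4, and smooth muscle and pericytes at 1.30 in R4 and -0.24 in R5.

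Over the 26 pathway lists, the median difference was above 0 for 17 lists in R2, for 6 in R4 and for 11 in R5, and 15 lists had opposite signs in R2 and R4. Subunits of the respiratory chain encoded in the nucleus followed the sterol genes: 40 of 46 were higher in R2 (median 0.31), 2 of 46 in R4 (-0.52) and 22 of 46 in R5 (-0.01). The fitted count was 6 of 46 above 0 (median -0.13), and it turned to 37 of 46 without R4 (0.14) and 42 of 46 without in vivo R4 (0.21). NDUFS1, a core subunit of complex I, had 14.6, 10.1 and 14.0 CPM with in vitro medium and 10.1, 23.2 and 16.99 CPM with in vivo medium, at -0.31 (-0.93 to 0.31). Of the 13 mRNAs encoded by the mitochondrial genome, 1 lay above 0 (median -0.20), and within numbers the medians were 0.00, -0.33 and -0.25. Without in vivo R4 the count was 6 of 13, but without R4 as a whole it was 0 of 13 (median -0.14). ATP6, a subunit of ATP synthase and the one with the lowest p, had 16825, 15543 and 36059 CPM against 20398, 22073 and 43544 CPM, lower within every number, at -0.37 (-0.99 to 0.25), and at -0.06 without in vivo R4.

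Stress and growth lists held no called gene. Heat shock proteins and co-chaperones lay above 0 in 19 of 23 with a small median of 0.08. Within numbers 18 of 23 were higher in R2, 8 of 23 in R4 (median -0.07) and 20 of 23 in R5. Without R5 the fitted count was 15 of 23 (0.02). HSPB8, a small heat shock protein, had 7.35, 32.3 and 35.4 CPM with in vitro medium and 5.74, 25.1 and 27.6 CPM with in vivo medium, at 0.36 (-0.26 to 0.98), and at 0.12 without in vivo R4. The unfolded protein response was above 0 in 7 of 24 (median -0.05; TRIB3 0.60, -0.31 to 1.52). Within numbers that list was higher in 19 of 24, 1 of 24 and 20 of 24 genes, so R4 alone lay below 0. The fitted count was 19 of 24 without R4 (0.17) and without in vivo R4 (0.15), and 1 of 24 (-0.10) with no replicate block, and TRIB3 was at 0.23 without in vitro R5. Immediate early genes were above 0 in 7 of 25 (-0.09), with CYR61, a matrix protein induced by growth factors, at 0.24 (-0.21 to 0.69). This count became 17 of 25 (0.09) without R4 and 19 of 25 (0.08) without in vivo R4.

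Glycolysis and hypoxia genes were above 0 in 11 of 31 (-0.07). There ANKRD37, a target of hypoxia-inducible factor, had 8.07, 1.29 and 1.03 CPM against 5.97, 0.679 and 0.668 CPM, higher within every number, at 0.63 (-0.07 to 1.34). Antioxidant and metal defence genes were above 0 in 7 of 31 (-0.13), with GCLC, which starts glutathione synthesis, at -0.31 (-0.78 to 0.15). For apoptosis and survival the count was 6 of 29 (-0.09). Cell cycle genes were above 0 in 9 of 33 (-0.13), with CCND3, a cyclin of the G1 phase, at -0.31 (-0.72 to 0.10). Without R4 the medians of the glycolysis, antioxidant and cell cycle lists turned to 0.10 (21 of 31), 0.08 (19 of 30) and 0.07 (18 of 33), and that of the apoptosis list was -0.01 (14 of 29). Without in vivo R4 GCLC and CCND3 were at -0.09 and -0.10.

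Genes for forming and releasing extracellular vesicles, membrane packets that cells secrete and take up, lay above 0 in 12 of 41, with a median of -0.06. With mitochondrial genes left out of the totals and tests the list median turned to 0.01, and the median over all genes to 0.02. Without R4 the list median was 0.02 (24 of 41). In R2 31 of 41 were higher with in vitro medium and in R4 8 of 41. CHMP4C, a subunit of the membrane-cutting ESCRT machinery, had 1.19, 4.72 and 3.08 CPM against 1.84, 4.81 and 4.68 CPM, at -0.40 (-1.02 to 0.22). Genes of microRNA biogenesis and silencing were above 0 in 10 of 17 (median 0.04), and in 8 of 17 (-0.02) without R4. TNRC6A, a partner of Argonaute proteins, had 68.3, 70.8 and 95.5 CPM against 44.3, 60.9 and 106.6 CPM, at 0.23 (-0.17 to 0.64), and at 0.03 without in vitro R2.

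**Figure D4:**
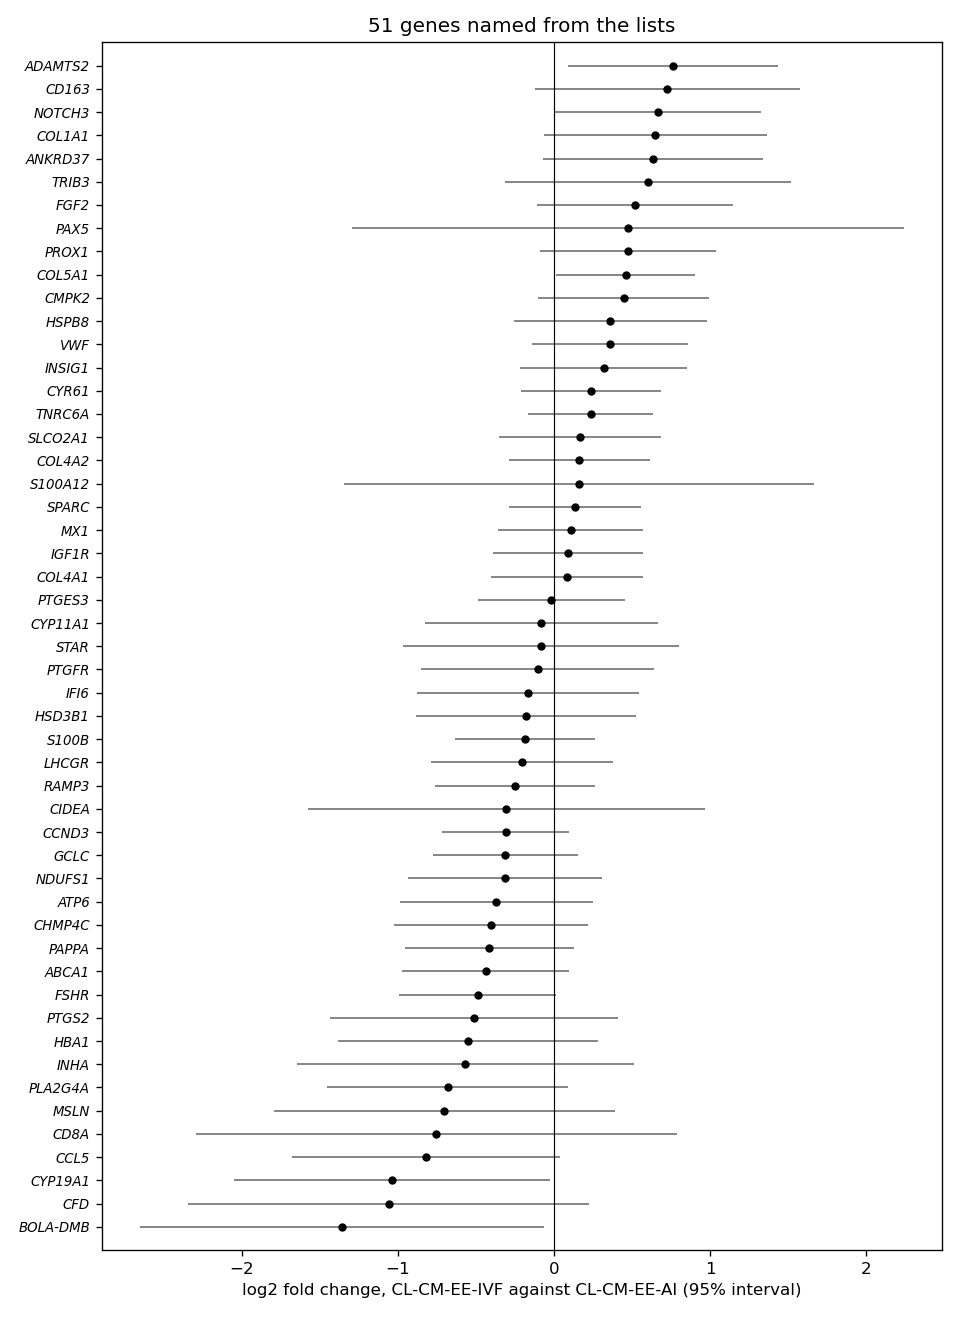
Log2 fold change of CL-CM-EE-IVF against CL-CM-EE-AI with its 95% interval (horizontal axis) for the 51 genes named from the lists, ordered by value. Values run from -1.36 (BOLA-DMB) to 0.76 (ADAMTS2), 28 lie below and 23 above 0, and 5 intervals exclude 0.

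The genes with the lowest p mostly had low levels, and the text names the 10 per direction with the lowest unadjusted p that moved the same way in all 3 numbers, so that shared direction is not a finding. Their unadjusted p ran from 0.0022 to 0.018 and every adjusted p was 1. RECQL4, a DNA helicase, had 0.935, 7.23 and 2.87 CPM with in vitro medium and 0.314, 0.623 and 0.859 CPM with in vivo medium, a log2 fold change of 2.36 (1.03 to 3.68). TMPRSS2, a transmembrane serine protease, had 3.23, 9.33 and 3.90 CPM against 2.15, 1.47 and 1.67 CPM, at 1.42 (0.61 to 2.23), and at 0.87 without R4. For TMPRSS2 the reference groups lay near the in vitro libraries. They had 5.02, 9.94 and 4.92 CPM in CL-NC and 3.93, 9.485 and 5.49 CPM in CL-CM-EE, in R2, R4 and R5. For both genes R4 was the highest in vitro library and the groups did not overlap. The death receptor TNFRSF25 had 1.66, 2.18 and 1.80 CPM against 0.224, 0.510 and 1.05 CPM, at 1.85 (0.64 to 3.07). GGT1, an enzyme that breaks down glutathione, had 1.10, 4.04 and 1.54 CPM against 0.449, 0.283 and 0 CPM, at 2.97 (0.82 to 5.13). FAM149A had a log2 fold change of 1.24 (0.27 to 2.22), and of 0.72 without R4, and its groups did not overlap either.

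The other 5 higher genes had overlapping groups. CHD5, a chromatin remodeller, was at 1.90 (0.75 to 3.05) and ARSG, a lysosomal sulfatase, at 1.35 (0.30 to 2.40), the latter at 0.62 without R4. DCAF15, a substrate receptor of a ubiquitin ligase, had 4.42, 115 and 47.6 CPM against 3.72, 5.27 and 5.87 CPM, at 2.76 (0.60 to 4.91), and at 1.83 without R4. High values of DCAF15 also occurred in single libraries of the reference groups. In R2, R4 and R5 it had 6.52, 4.60 and 47.8 CPM in CL-NC and 6.52, 49.5 and 5.14 CPM in CL-CM-EE. KCNQ5, a potassium channel, had 2059 CPM in in vitro R2 and between 8.45 and 19.2 CPM in the other 5 libraries. KLF15, a zinc finger transcription factor, had 953 CPM in in vitro R4 and between 0.718 and 3.06 CPM in the others. Their log2 fold changes of 4.01 and 5.58 became 0.59 and 0.24 without the library in question.

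Of the 10 lower genes, 7 had groups that did not overlap, as had 5 of the 10 higher genes. Over all genes tested the shares were 1.56% and 0.755%, and nothing is read from this, since the 20 genes were chosen by the lowest p of the same contrast. CDH23, a cadherin, had 12.8, 15.2 and 20.9 CPM with in vitro medium and 30.2, 39.0 and 23.6 CPM with in vivo medium, a log2 fold change of -0.995 (-1.73 to -0.26), and -0.59 without in vivo R4. TPRG1L had 5.61, 5.41 and 3.64 CPM against 7.67, 12.1 and 6.35 CPM, at -0.80 (-1.35 to -0.24). TTLL9, a tubulin-modifying enzyme, had 2.93, 0.323 and 2.61 CPM against 13.5, 3.28 and 5.49 CPM, at -1.98 (-3.29 to -0.67). ABCC8, the sulfonylurea receptor of potassium channels, had 0.510, 0.848 and 1.80 CPM against 2.96, 28.5 and 2.00 CPM, with in vivo R4 far above the rest, at -2.93 (-4.98 to -0.87), and at -1.21 without R4. SPATC1 was at -3.51, CFAP73, of cilia and flagella, at -2.07, and ARHGEF33 at -1.59 (-0.92 without R2). The overlapping genes were SOHLH2, a germ cell transcription factor, at -2.89, SRCIN1, an inhibitor of Src, at -1.39 (-0.81 without R2), and the tubulin TUBB4A at -1.10.

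**Figure D5:**
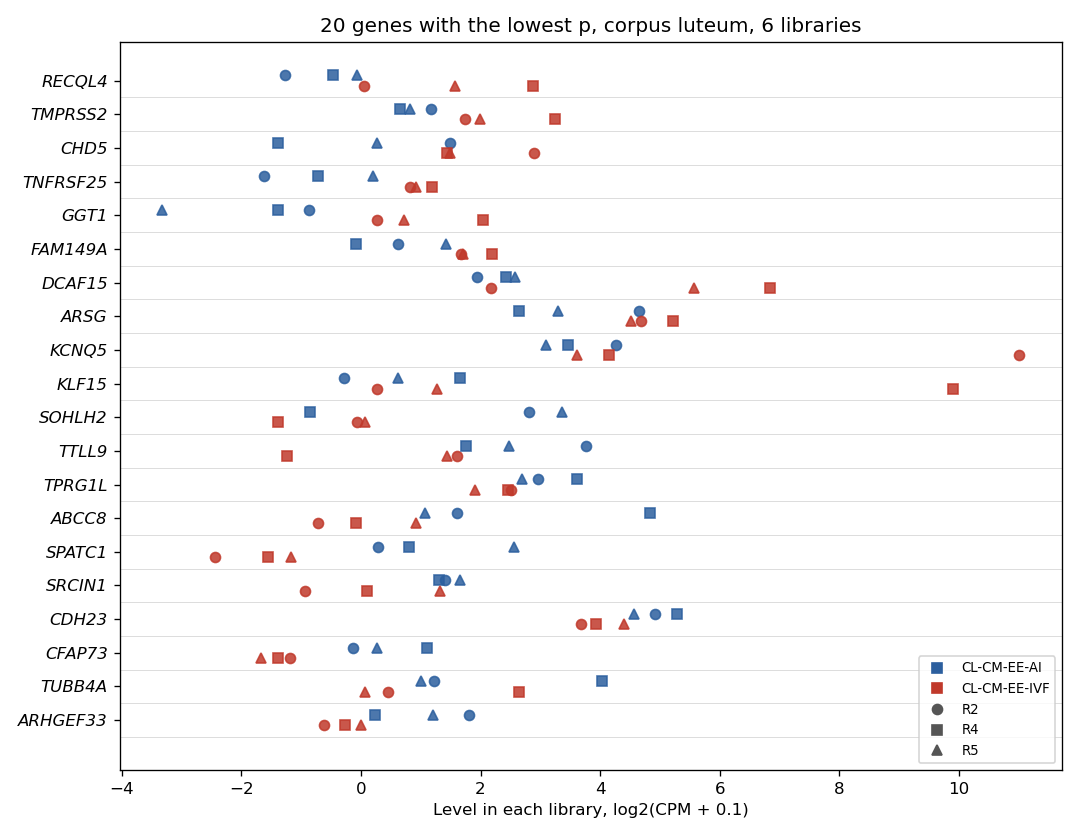
Level of the 20 genes named for the lowest p in each of the 6 libraries, as log2(CPM + 0.1) (horizontal axis), with CL-CM-EE-AI in blue, CL-CM-EE-IVF in red and the R number as the symbol. The first 10 genes are higher and the last 10 lower in CL-CM-EE-IVF, and single libraries stand far out for KCNQ5 (R2, 2059 CPM) and KLF15 (R4, 953 CPM).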

How the data were processed

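The deposited corpus luteum table holds whole read counts per gene, in all 12 columns. None of the deposited values was a fractional expected count, so nothing was rounded. Trim Galore and cutadapt, STAR and featureCounts, and DESeq2 appear in the submitters' processing notes. The sources used here give no versions, genome build, annotation or strand setting, so no coordinates are printed, and overlapping or near-identical genes may share reads. No gene of the 19112 had a sum under 36 counts over the 12 columns.

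Genes were kept with filterByExpr by group (18939), scaled by TMM and fitted with edgeR 4.0.16 by quasi-likelihood F test on all 12 libraries, with group and R number as terms, and adjusted by Benjamini-Hochberg (threshold 0.05). The common biological coefficient of variation was 0.389. CPM are TMM-normalised, and log2 differences within a number used a prior count of 2. Intervals are 95% intervals, with a standard error worked back from the log2 fold change and the F value of the test. An interval that excludes 0 therefore restates an unadjusted p under 0.05. Shares were compared by exact permutation, without the R number as a block. DESeq2 1.42.0, limma 3.58.1 (voom), other scalings and filters, and leaving out libraries were alternatives. The versions of R and Python were 4.3.3 and 3.11.15, and matplotlib was 3.10.9.

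The comparison and the 40 gene lists (26 of pathways, 14 of cell types) were chosen with earlier results of these data known. Lists are described by counts above 0 and medians beside all genes tested, without a set test, and listed genes not in the table were not analysed here. Named are, per direction, up to 10 genes with a symbol, at least 1 CPM in either group, the same direction in all 3 numbers and the lowest p; from each list the gene with the lowest p; and the 3 highest genes of the lists of steroidogenesis, hormone receptors, interferon-stimulated genes, prostaglandins and matrix. Other genes named were chosen after their values were seen. A few results that this rule would name are not reported here.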

Additional observations from a re-analysis of the deposited data

How the results depend on the processing

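The number of genes called was 0 in the main analysis and under each of the 18 alternatives. The number with an unadjusted p under 0.05, 163 in the main analysis, was 127 with no replicate block, 136 with the 6 libraries alone, 160 without mitochondrial genes and 123 with a robust edgeR fit (added after seeing the data), and it moved to 108 with at least 1 CPM required in 6 libraries, where fewer genes (14700) were tested. Leaving out a library or a number gave 126 to 485. Same-numbered libraries of different groups deviated together in 15 of 18 pairs by a correlation over 0.1 (0.0813 to 0.662), against 6 of 36 other pairs (-0.49 to 0.198). Deviations were taken from the mean of each group, which ties the pairs to each other, so the 36 are not an independent comparison. The pair compared here had 0.416 in R5, 0.359 in R4 and 0.0826 in R2. R2 falls short, so this measure alone does not show that the numbers pair the samples. Some genes, chosen after their values were seen, did follow the number in every corpus luteum group. HBA1 was higher in each R2 library than in any R4 or R5 library, and IFI6 and HSPB8 were lower. Whether the libraries of a number share a source was not tested. The block was used because the comparison was set that way, and without it 0 genes were called too. Of the 71 named genes, 53 kept the sign of their log2 fold change under each of the 18 alternatives that tested them and 18 did not. Leaving out a library or a number changed the sign, with the range over those alternatives, for NDUFS1 (-0.73 to 0.12), PROX1 (-0.013 to 0.75), PAX5 (-0.19 to 1.29), S100A12 (-0.16 to 0.58), CIDEA (-0.57 to 0.20), HSD3B1 (-0.61 to 0.26), CYP11A1 (-0.49 to 0.42), STAR (-0.53 to 0.61), PTGFR (-0.51 to 0.38), LHCGR (-0.51 to 0.23), IGF1R (-0.13 to 0.26), IFI6 (-0.35 to 0.22), MX1 (-0.13 to 0.36), PTGES3 (-0.11 to 0.14), SLCO2A1 (-0.12 to 0.34), COL4A1 (-0.067 to 0.20), SPARC (-0.017 to 0.25) and COL4A2 (-0.0092 to 0.30). Other alternatives changed it for S100A12 (-0.13 with no replicate block, -0.17 with voom), CYP11A1 (0.028 with 6 libraries), STAR (0.069 with 6 libraries, 0.0072 with voom), MX1 (-0.12 with no replicate block) and PTGES3 (0.04 with 6 libraries and 0.042 without mitochondrial genes). The cause was not tested. Leaving out a library, the difference in mean mitochondrial share, taken without regard to the R number, ran from -4.76 to 0.125 percentage points. Low genes limit the comparison: the median interval reached 0.76 to either side on the log2 scale over all genes. It was 0.62 over those with a mean of at least 1 CPM over the 6 libraries.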

Other observations

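Some genes were high in a single library. With the criterion of at least 20 CPM in 1 of the 6 libraries and at least 10 times the level of the next, chosen after seeing the data, 26 genes were found: with in vitro medium 6 in R2, 6 in R4 and 0 in R5, and with in vivo medium 5 in R2, 2 in R4 and 7 in R5. Of these, 14 had an unadjusted p under 0.05. AGXT, a peroxisomal aminotransferase of glyoxylate metabolism, was at 182 CPM in R2 with in vitro medium and at most 0.727 CPM in the others. CNMD, the cartilage protein chondromodulin, was at 561 CPM in R4 with in vitro medium and at most 10.9 CPM in the others. ACR, the sperm protease acrosin, was at 199 CPM in that same library and at most 1.72 CPM elsewhere.

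With in vivo medium the genes UNKL and ARHGAP20 reached 1144 and 1130.0 CPM in R5, with next levels of 24.4 and 102 CPM. MCEE, of propionate metabolism, reached 179 CPM in R5 against at most 2.50 CPM, and KNG1, the precursor of kinins, 80.0 CPM against at most 1.199 CPM. TPPP2 was at 156 CPM in R2 and at most 3.39 CPM in the others, and BSN, a presynaptic scaffold protein, at 156 CPM in R4 and at most 1.86 CPM. A single library held more than 50% of the summed CPM of the 6 libraries in 38.7% of the genes with an unadjusted p under 0.05, and in 3.30% of all genes tested.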
